A study of Mus musculus with 2 samples.

Results

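The genes of the mouse major histocompatibility complex (MHC), together with the genes that load its products with peptide, were followed in the heart of old mice. Members were every gene whose symbol begins with H2-, the mouse name of the complex, and which has at least 1 protein_coding transcript in the annotation (37 genes), plus B2m, Tap1, Tap2, Tapbp, Cd74, Ciita and Nlrc5. This gave 44 of 55536 annotated genes. By role they were 2 classical class I heavy chains, 24 other class I heavy chains, 4 genes of class I loading, 5 class II chains, the class II invariant chain, 5 class II peptide editors, 2 regulators and H2-Ke6. H2-Ke6 encodes a dehydrogenase and is named only for its place in the region. Another 8 genes with H2- symbols had no protein_coding transcript and were not members.

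Total RNA of the heart was sequenced in 2 libraries that form a single group. The animals were male B6CASTF1/J mice, the first-generation cross of C57BL/6J with CAST/EiJ, supplied by The Jackson Laboratory and 18 to 20 months old. Each library was stranded, depleted of ribosomal RNA and made from 300 ng of RNA, to which ERCC spike-ins (known amounts of artificial RNAs) had been added. The labels name no treatment or second condition, so the comparison made here is of replicate 2 with replicate 1, beside the levels in both. The libraries have different sample identifiers and the same donor identifier, so part or all of the spread between them may be technical. Whether they come from separate animals is not clear. The p-values below account for counting error only. They do not measure the spread between animals or between preparations.

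MHC class I molecules are heavy chains paired with beta-2 microglobulin (B2m) that show peptides from inside the cell to CD8 T cells and natural killer cells. The peptides are cut by proteasomes, pumped into the endoplasmic reticulum by the Tap1 and Tap2 transporter and fitted with the help of tapasin (Tapbp). MHC class II molecules are alpha and beta chains that show peptides from endosomes to CD4 T cells. The invariant chain Cd74 guards their groove until the H2-DM editors exchange its remnant for peptide, and H2-O restrains H2-DM. Nlrc5 is the main transcriptional activator of class I genes and Ciita that of class II genes. Class I is made by nearly all nucleated cells, endothelium included, whereas class II is made mainly by professional antigen-presenting cells such as macrophages, dendritic cells and B cells.

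In GENCODE M21 on mm10, 40 of the 44 members lie on chromosome 17 between 33915899 and 37483552, a span of 3.57 Mb, and 4 lie elsewhere. The class I genes there arose by duplication and resemble one another, so a short read can match several of them. The coding exon of the alpha-1 domain (exon 2), which forms one side of the peptide groove, shows this. Its first 90 bases are given below from the GENCODE M21 transcripts of 5 class I genes, on the coding strand 5′ to 3′. Lower case marks bases equal to H2-K1 and capitals mark bases that differ from it.

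H2-K1, chr17:33999914-34000003, minus strand: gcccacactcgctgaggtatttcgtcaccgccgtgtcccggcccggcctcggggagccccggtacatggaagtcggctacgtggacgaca
H2-D1, chr17:35263379-35263468, plus strand: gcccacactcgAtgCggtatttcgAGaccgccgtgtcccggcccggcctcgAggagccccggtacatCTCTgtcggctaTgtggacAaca
H2-Q6, chr17:35425108-35425197, plus strand: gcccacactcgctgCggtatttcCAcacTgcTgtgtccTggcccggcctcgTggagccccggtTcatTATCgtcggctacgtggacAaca
H2-Q7, chr17:35439452-35439541, plus strand: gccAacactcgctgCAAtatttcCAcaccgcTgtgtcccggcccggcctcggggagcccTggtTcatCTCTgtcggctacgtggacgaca
H2-T23, chr17:36032333-36032422, minus strand: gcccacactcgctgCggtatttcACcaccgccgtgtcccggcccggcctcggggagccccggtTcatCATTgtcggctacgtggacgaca

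Of those 90 bases, 11 differed from H2-K1 in H2-D1, 13 in H2-Q6, 13 in H2-Q7 and 8 in H2-T23, some in short runs and others as single bases. Over the whole 270-base exon 2, H2-K1 and H2-D1 were 91.1% identical and H2-Q6 and H2-Q7 93.0%. H2-K1 and H2-M3, a distant class I gene that presents formylated peptides, were 69.6% identical. In exon 3, the alpha-2 exon of 276 bases, H2-Q6 and H2-Q7 were 94.9% identical, the closest pair among the 7 genes compared at that length. These are reference sequences of C57BL/6J, against which reads from the CAST/EiJ chromosome were counted as well. The parental allele of the reads was not tested.

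The promoters of these genes are known for a shared module that ends in a Y box, the element CCAAT or its reverse complement ATTGG. The windows below run from 100 to 11 bases before the start site in RefSeq GRCm38.p6, on the gene's strand 5′ to 3′, with each CCAAT or ATTGG in capitals. They show a class I light chain, a pair of Q-region heavy chains and a class II alpha and beta chain.

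B2m, chr2:122147587-122147676, plus strand: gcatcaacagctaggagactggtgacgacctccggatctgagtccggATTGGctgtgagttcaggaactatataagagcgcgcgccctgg
H2-Q4, chr17:35379517-35379606, plus strand: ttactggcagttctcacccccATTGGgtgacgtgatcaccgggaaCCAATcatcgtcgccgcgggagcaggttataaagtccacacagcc
H2-Q6, chr17:35424750-35424839, plus strand: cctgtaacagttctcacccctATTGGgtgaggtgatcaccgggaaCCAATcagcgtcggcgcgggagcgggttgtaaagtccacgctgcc
H2-Aa, chr17:34287834-34287923, minus strand: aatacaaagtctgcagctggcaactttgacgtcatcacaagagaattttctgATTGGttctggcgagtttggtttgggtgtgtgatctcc
H2-Eb1, chr17:34305767-34305856, plus strand: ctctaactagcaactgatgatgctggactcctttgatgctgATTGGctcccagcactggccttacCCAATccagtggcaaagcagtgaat

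RefSeq windows of 250 bases before to 50 after the start site matched 34 of the 44 members. CCAAT on either strand was found in 31 of those 34, against 37.4% of all 32851 windows. TATAA on either strand was found in 17 of 34, against 24.9% of all windows. The interferon element TTCNNTTTC on either strand was found in 3 of 34, against 8.56% of all windows. A pattern chosen after the windows were seen, ATTGG followed by CCAAT with 18 to 20 bases between them, reads the same on both strands and overlaps the CCAAT search by construction. It was present in 7 of 34 members, H2-K1, H2-D1, H2-Q4, H2-Q6, H2-Q7, H2-T22 and the class II gene H2-Eb1, and in 0.216% of all windows. A match describes the letters only.

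Values below are from the gene table, as TPM (a length-scaled level that sums to a fixed total) and expected counts (reads assigned to a gene by the quantifier). Replicate 1 had 39053830 expected counts in all and replicate 2 had 37447840. Log2 ratios are replicate 2 over replicate 1 after TMM scaling, with 95% exact Clopper-Pearson intervals that cover counting error only. Among the 12189 genes whose mean reached 1 TPM the median log2 ratio was -0.02, and 95% of ratios lay between -0.66 and 0.56. A gene is said to pass counting error when its exact conditional binomial test had an adjusted p below 0.05.

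Of the 44 members, 23 had a mean of at least 1 TPM and 21 reached 1 TPM in both libraries. H2-Q1 and H2-DMb1 passed the filter through replicate 1 alone, with replicate 2 under 1 TPM, so the filter favoured a lower value in replicate 2 for them. Class I RNA was the more abundant arm. The 26 class I heavy chains summed to 325.72 TPM in replicate 1 and 132.4 in replicate 2, and the 5 class II chains to 67.4 and 37.9 TPM. Nearly every tested member was lower in replicate 2. Of these 23, 18 were lower past counting error and none was higher, where 15.8% of all tested genes were lower and 10.6% higher by that rule. At least 2-fold lower were 6 members, all of them class I heavy chains, and none was 2-fold higher, against 1.13% and 0.533% of all tested genes. The log2 ratio was below 0 in 22 of the 23, against 54.5% of all tested genes, with a median of -0.73.

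**Figure D1:**
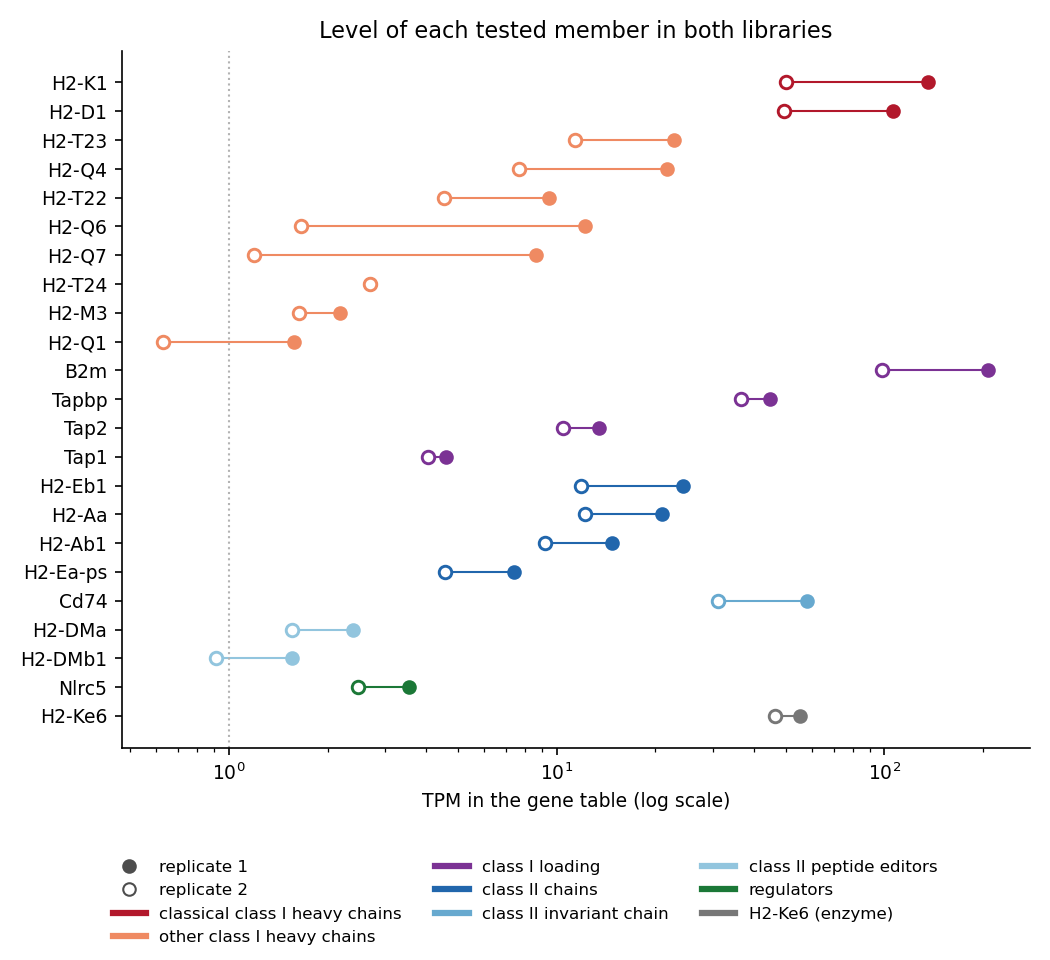
Level of the 23 members with a mean of at least 1 TPM, in TPM of the gene table on a log axis, with replicate 1 as filled and replicate 2 as open circles, coloured by role. B2m, H2-K1 and H2-D1 lead the class I arm and Cd74 the class II arm, and H2-T24 has the same level in both libraries.

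H2-K1 and H2-D1 are the classical class I genes of the reference annotation, the chains that present most peptides to CD8 T cells. H2-K1 (ENSMUSG00000061232.16, chr17:33996017-34000347, minus strand) was at 135.89 TPM in replicate 1 and 49.95 in replicate 2, from 4048.24 and 1395.93 expected counts. H2-D1 (ENSMUSG00000073411.11, chr17:35262730-35267499, plus strand) was at 105.92 and 49.46 TPM. H2-K1 thus stood above H2-D1 in replicate 1, while in replicate 2 both stood at about the same level. The gap in replicate 1 and the order in replicate 2 rest on the table. In the second table H2-K1 and H2-D1 were at 117 and 110 TPM in replicate 1, and at 50.2 and 54.9 in replicate 2. The first transcript table put 57.11 and 21.55 TPM of H2-K1 on a short retained-intron transcript, H2-K1-215. By expected counts H2-D1 stood above H2-K1 in both libraries, with 5735.53 and 2606.75. The log2 ratio was -1.40 for H2-K1 (interval -1.49 to -1.31, exact binomial test, adjusted p = 4.24e-241) and -1.0001 for H2-D1 (-1.07 to -0.93). The summed counts of the pair, which are free of any split of shared reads between them, gave a log2 ratio of -1.15 (-1.21 to -1.10), or 2.22-fold lower in replicate 2. Their summed level was 170.61 ± 100.69 TPM (SD, n = 2 libraries), an SD of the same order as the mean.

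The other class I heavy chains include the Q, T and M genes, many of which are called non-classical. Of the 24 genes, 8 were tested, 6 of those were lower past counting error and 4 were at least 2-fold lower. Together the 24 summed to 83.9 TPM in replicate 1 and 33.0 in replicate 2. Their summed counts had a log2 ratio of -1.26 (-1.34 to -1.18). Most of this sum was carried by H2-T23, H2-Q4, H2-T22, H2-Q6 and H2-Q7.

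H2-Q6 and H2-Q7, neighbours in the Q region, stood furthest apart between the libraries. H2-Q7 is known as a gene of Qa-2, a class I antigen held in the membrane by a lipid anchor. H2-Q6 (ENSMUSG00000073409.12, chr17:35424850-35430055, plus strand) was at 12.18 TPM in replicate 1 and 1.66 in replicate 2, with 696.25 and 101.11 expected counts. H2-Q7 (ENSMUSG00000060550.16, chr17:35439155-35443773, plus strand) was at 8.65 and 1.19 TPM. The log2 ratios were -2.63 (-2.96 to -2.34) for H2-Q6 and -2.49 (-2.88 to -2.17) for H2-Q7, ranks 25 and 27 from the lowest of the 12189 genes. Since they share sequence, as the exon above shows, their counts were also summed. The sum was 1193 counts in replicate 1 and 180 in replicate 2, a log2 ratio of -2.59 (-2.83 to -2.36) or 6.03-fold lower. The second transcript table, a separate quantification of the same reads, gave -2.34 for the sum. Without both genes, the other class I heavy chains still had a summed log2 ratio of -0.96 (-1.05 to -0.87).

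H2-Q4, another Q-region gene, was at 21.76 and 7.65 TPM in replicates 1 and 2, with a log2 ratio of -1.36 (-1.53 to -1.21). H2-T23, which encodes Qa-1, the ligand of the inhibitory receptor CD94/NKG2A, was at 22.85 and 11.34 TPM (log2 ratio -0.89, -1.05 to -0.73). H2-T22, whose product binds some gamma-delta T cell receptors and carries no peptide, was at 9.49 and 4.52 TPM (-0.96, -1.21 to -0.74). Each of these 3 genes passed counting error, and each level in replicate 2 was below that in replicate 1 in both quantifications. H2-T10, the close relative of H2-T22, was at 1.16 and 0.50 TPM and fell under the filter. Summed with H2-T22 it gave a log2 ratio of -1.02 (-1.24 to -0.80).

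H2-T24 and H2-M3 did not pass counting error. H2-T24, a class I-like gene of the T region, was at 2.69 TPM in both libraries, from 173 and 160 expected counts. Its log2 ratio was 0.02 (-0.29 to 0.34, exact binomial test, adjusted p = 0.978), and -0.05 when scaled by total counts, so it has no stable direction. H2-M3 was at 2.18 and 1.63 TPM with a log2 ratio of -0.28 (-0.77 to 0.18, exact binomial test, adjusted p = 0.444). A difference for H2-M3 was not detectable at 90 and 67 counts. With these unequal ratios the make-up of class I RNA differed between the libraries. H2-K1 made up 41.7% of class I heavy chain TPM in replicate 1 and 37.7% in replicate 2, and H2-D1 32.5% and 37.4%. H2-Q6 went from 3.74% to 1.25% and H2-T24 from 0.826% to 2.03%. By the second table the share of H2-K1 changed less, from 36.0% to 34.7%, and H2-D1 went from 33.8% to 37.9%. There H2-Q6 went from 3.85% to 1.37% and H2-T24 from 0.910% to 2.25%.

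H2-Q1, a low Q-region gene, was at 1.58 and 0.63 TPM, from 90.15 and 36.09 counts. Its log2 ratio was -1.14 (-1.78 to -0.61, exact binomial test, adjusted p = 0.000168). In the second table it stood at 0.730 and 0.0981 TPM, under the filter, and all of its reads there went to a retained-intron transcript. The level of this gene is therefore uncertain.

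Class I loading genes divided into B2m on one side and the transporter and tapasin on the other. B2m (ENSMUSG00000060802.8, chr2:122147686-122153083, plus strand), the light chain that every class I molecule needs, was the most abundant member at 207.64 TPM in replicate 1 and 98.07 in replicate 2. Its log2 ratio was -0.95 (-1.03 to -0.88), close to that of H2-D1. The ratio of B2m TPM to summed class I heavy chain TPM was 0.637 in replicate 1 and 0.741 in replicate 2. Tapbp, tapasin, was at 44.65 and 36.51 TPM (log2 ratio -0.25, -0.33 to -0.16). Tap2 was at 13.42 and 10.43 TPM (-0.36, -0.50 to -0.23), and Tap1 at 4.59 and 4.05 TPM (-0.17, -0.39 to 0.04, exact binomial test, adjusted p = 0.253). The sum of Tap1, Tap2 and Tapbp had a log2 ratio of -0.27 (-0.34 to -0.20). That interval does not overlap the -1.23 to -1.14 of all class I heavy chains summed, so the gap between these sums was larger than counting error. The planned sum held all 4 loading genes, and leaving out B2m, the lowest of them, favours such a gap. Nor does it hold for every heavy chain: H2-T24 (0.02) and H2-M3 (-0.28) lay near or above these 3 genes. All 4 loading genes summed to a log2 ratio of -0.61 (-0.66 to -0.56), with B2m carrying most of it.

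**Figure D2:**
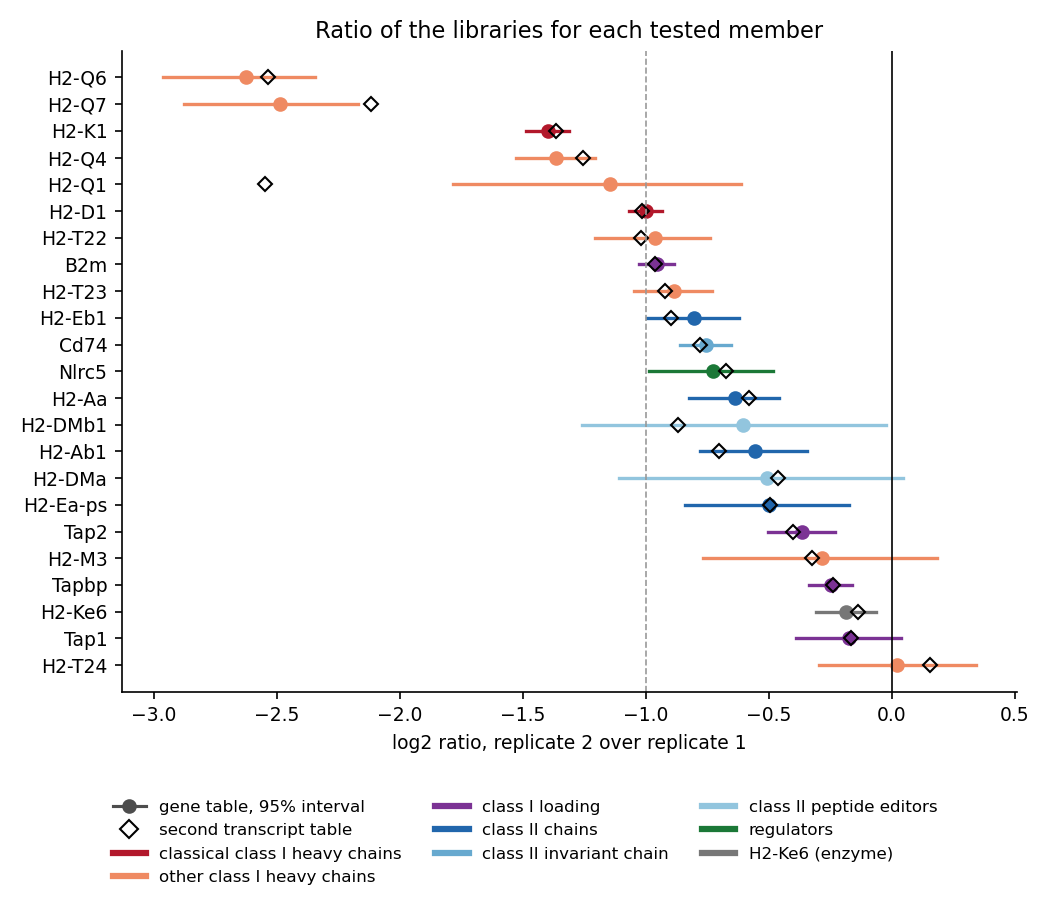
Log2 ratio of replicate 2 over replicate 1 for the 23 tested members, with circles and 95% counting intervals from the gene table and diamonds from the second transcript table. The class I heavy chains H2-Q6 and H2-Q7 lie lowest at -2.63 and -2.49, the class II members lie between -0.80 and -0.50, and Tapbp, H2-Ke6, Tap1 and H2-T24 lie nearest 0.

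The class II members were lower in replicate 2 within a narrow range. All 4 tested chains and Cd74 passed counting error, with log2 ratios from -0.80 to -0.50. Cd74 (ENSMUSG00000024610.15), the invariant chain, was the most abundant of them at 58.11 TPM in replicate 1 and 30.98 in replicate 2, with a log2 ratio of -0.75 (-0.86 to -0.65). H2-Eb1, the E beta chain, was at 24.24 and 11.89 TPM (-0.80, -0.99 to -0.62). The A alpha chain H2-Aa was at 20.94 and 12.18 TPM (-0.64, -0.82 to -0.46) and its partner H2-Ab1 at 14.75 and 9.21 TPM (-0.56, -0.78 to -0.34). Their intervals overlap one another. The 5 chains together had a log2 ratio of -0.66 (-0.76 to -0.55), with 2012 and 1160 summed counts.

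H2-Ea-ps, the E alpha gene, is annotated as a polymorphic pseudogene, and the C57BL/6 haplotype is known not to express it. It was at 7.42 TPM in replicate 1 and 4.55 in replicate 2, from 195 and 125 counts, with a log2 ratio of -0.50 (-0.84 to -0.17, exact binomial test, adjusted p = 0.0125). It made up 11.02% and 12.02% of class II chain TPM in the libraries. None of its 100-base stretches occurred in another annotated gene, and the posterior SD of its count was 0, so no ambiguity between genes was recorded for its reads. H2-Eb2, a further beta chain, had under 1 TPM.

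The class II peptide editors were low. H2-DMa was at 2.39 and 1.56 TPM and H2-DMb1 at 1.56 and 0.91 TPM, with log2 ratios of -0.51 (-1.11 to 0.05) and -0.61 (-1.26 to -0.02). Neither passed counting error, with adjusted p = 0.191 and 0.124 in the exact binomial test. H2-DMb1 passed in the second table at an adjusted p of 0.00898 in the same exact test. H2-DMb2, its near copy, was at 0.81 and 0.70 TPM. The summed counts of H2-DMb1 and H2-DMb2 gave a log2 ratio of -0.43 (-0.90 to 0.04), and -0.56 (-1.03 to -0.11) in the second table. The 5 editors, H2-DMa, H2-DMb1, H2-DMb2, H2-Oa and H2-Ob, summed to 179 and 124 counts, a log2 ratio of -0.39 (-0.74 to -0.05).

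Both activators were low. Nlrc5 was at 3.53 TPM in replicate 1 and 2.47 in replicate 2, from 371 and 203 counts, with a log2 ratio of -0.73 (-0.99 to -0.48, exact binomial test, adjusted p = 5.47e-08). Ciita was at 0.51 and 0.49 TPM, from 54 and 71 counts, and fell under the filter, so it was not tested. Its log2 ratio was 0.52 (0.0009 to 1.07), and 0.41 in the second table, opposite in sign to the tested class II chains. H2-Ke6, the dehydrogenase, was at 55.40 and 46.25 TPM (log2 ratio -0.19, -0.31 to -0.06, exact binomial test, adjusted p = 0.0141). It did not pass in the second table (-0.14) or with spike-in scaling (-0.09). Gm20427, which overlaps H2-Ke6 on the same strand and shares sequence with it, was given 0 and 62.99 counts. The part of this split of reads in the H2-Ke6 ratio was not tested.

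**Figure D3:**
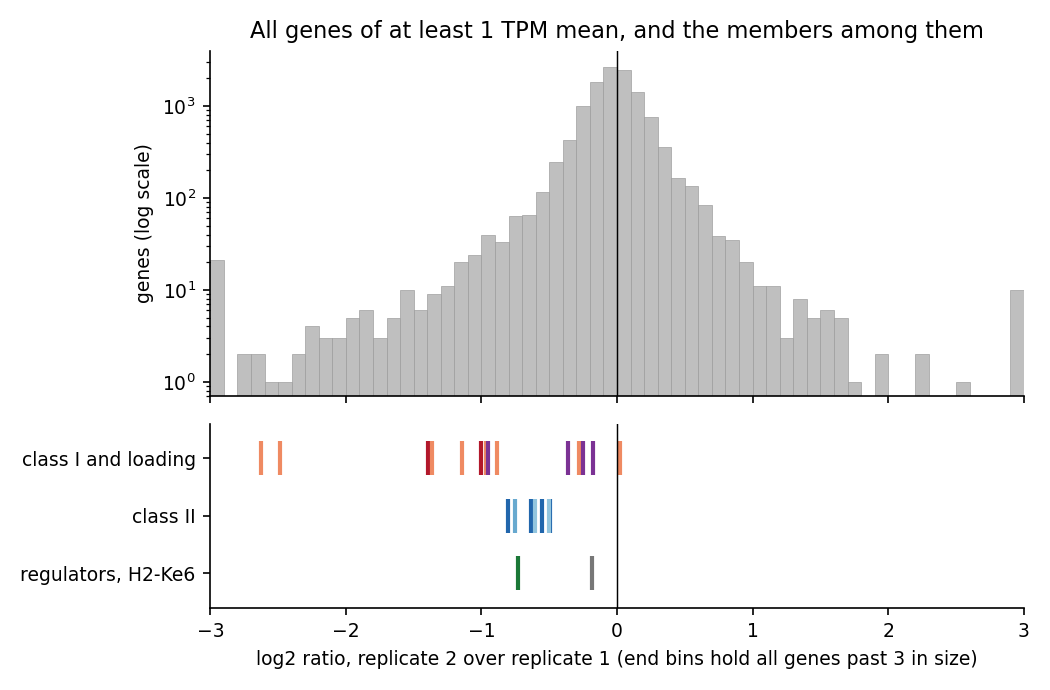
Upper panel, number of genes (log axis) by log2 ratio of replicate 2 over replicate 1 for the 12189 genes whose mean reached 1 TPM, the end bins holding all genes past 3 in size. Lower panel, 1 mark per tested member by role, with 22 of 23 marks left of 0.

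The remaining 21 members had a mean under 1 TPM, the highest being H2-T10 at 0.83. H2-Q2 was at 0.68 and 0.81 TPM in replicates 1 and 2 in the gene table, and in the second table at 1.41 and 0.530, so its direction depends on the quantification. So does that of H2-Q10, chosen after its values were seen: it had 16.07 and 16.39 counts in the gene table (log2 ratio 0.12) and 100.5 and 55.8 in the second table (-0.66), where it passed counting error at an adjusted p of 0.023 in the exact binomial test. No counts at all were assigned to 9 members in either library, namely H2-T3, H2-M1, H2-M11 and the 6 H2-M10 genes, a family known from vomeronasal neurons. A count of 0 allows up to 3 counts in a library. In all, 13 of the 21 had 3 counts or fewer in both libraries.

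Other genes of the pathway were taken from lists that leave the members out. Of 33 with a mean of at least 1 TPM, 10 were lower and 3 higher in replicate 2 past counting error, none 2-fold. By that rule 15.8% of all tested genes were lower and 10.6% higher. The median log2 ratio of the 33 was -0.05. The closest to the members were the genes of peptide supply, lower in 4 of 6 with a median of -0.34. These were the immunoproteasome subunits Psmb8 (13.87 and 8.11 TPM, log2 ratio -0.68), Psmb9 (10.19 and 6.25 TPM, -0.49) and Psmb10 (37.13 and 26.25 TPM, -0.41), and the proteasome activator subunit Psme1 (128.56 and 95.46 TPM, -0.27). The trimming peptidase Erap1 had -0.07. Among the general chaperones of the endoplasmic reticulum, calreticulin (Calr) was at 123.10 and 122.77 TPM (log2 ratio 0.14) and calnexin (Canx) at 130.78 and 129.31 TPM (0.07). Both passed counting error on the higher side with TMM scaling, although their TPM was not higher in replicate 2. TMM and total counts set the log2 library size of replicate 2 at -0.14 and -0.06, a gap wider than the Canx ratio, so no direction is given for Canx. Pdia3 was lower, at 58.02 and 50.07 TPM (-0.15). None of the 4 tested class I-like genes outside the H2 region passed, among them Fcgrt (0.08), the antibody transport receptor, and Hfe (0.05), the iron regulator, both of which also pair with B2m.

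In the class II pathway list 3 of 12 were lower past counting error and none higher, against 15.8% and 10.6% of all tested genes. The smallest of these 3 ratios, -0.04, is within the gap between TMM and total-count library sizes, so no direction is given for it. Cathepsin S (Ctss), the protease that trims the invariant chain, was at 7.33 and 4.62 TPM, a log2 ratio of -0.53 (-0.82 to -0.26). The promoter factors that work with Ciita, Rfx5 (0.37), Rfxap (0.03), Rfxank (-0.14), Nfya (-0.17), Nfyb (0.12) and Nfyc (0.05), did not pass. Among interferon genes and regulators, 2 of 7 tested genes were lower past counting error and 1 higher, against the same 15.8% and 10.6%. The lower ones were the kinase Jak1, at 36.73 and 30.32 TPM (log2 ratio -0.17), and the receptor chain Ifngr1, at 19.38 and 15.60 TPM (-0.19). Irf1, a factor induced by interferon gamma, was higher in replicate 2 at 12.88 TPM against 9.65 (0.49, 0.33 to 0.65). Ifng, the gene of interferon gamma itself, had 0 counts in both libraries.

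Marker genes of cell types also differed between the libraries. Their counts stand beside 15.8% of all tested genes lower and 10.6% higher past counting error. In bulk tissue, fewer cells of a type and less RNA per cell cannot be told apart. Macrophage markers summed to 157.5 TPM in replicate 1 and 115.46 in replicate 2, with 6 of 9 tested genes lower past counting error, none higher and a median of -0.28. Adgre1, the F4/80 antigen, was lowest at -0.70. Endothelial markers summed to 180.58 and 184.73 TPM (1 of 6 lower, 3 higher), and fibroblast markers to 187.74 and 176.83 TPM (1 of 5 lower, 3 higher). White adipocyte markers summed to 32.23 and 6.22 TPM, with all 4 tested genes at least 2-fold lower. One of these, Retn, passed the filter through replicate 1 alone, which favoured a lower value. Atrial muscle markers summed to 1371 and 814 TPM, with 5 of 5 lower. Cardiomyocyte markers, which define the labelled tissue, summed to 32597 and 26831 TPM, with 5 of 6 lower, 1 higher and a median of -0.15. Of these, Tnnt2 (-0.02), Actc1 (-0.07) and Myl2 (0.02) had ratios smaller than the gap between TMM and total-count library sizes. No direction is given for them. Dendritic cell markers summed to 5.21 and 5.77 TPM, most of it Zbtb46, which endothelium also makes. B cell markers summed to 1.93 and 2.35 TPM and T and NK cell markers to 1.32 and 1.62 TPM, with no gene of either list at a mean of 1 TPM and none at 0 counts. The part of any of these cell types in the members' ratios was not tested.

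The quantifier gave each expected count a posterior SD, its own uncertainty from reads that match several genes. It was 0 in both libraries for 12 of the 23 tested members, among them B2m, Cd74, Tap1, Tap2, Nlrc5, H2-Aa, H2-Ab1 and H2-Eb1. It was under 2% of the count in both libraries for 19. For H2-K1 it was 3.86 of 4048.24 counts in replicate 1, and for H2-D1 13.34 of 5735.53. For H2-Q6 it was 8.37 of 696.25 counts in replicate 1 and 3.40 of 101.11 in replicate 2, far less than the gap between the libraries. Among the 23 the largest share was that of H2-Q1, 9.58% in replicate 1 and 15.7% in replicate 2.

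This uncertainty was set beside the sequence held in common. Every 100-base stretch of each member's annotated transcripts was looked up in the transcripts of all other genes. H2-Q7 shared 11.98% of its stretches, H2-DMb1 11.3%, H2-Q6 10.8%, H2-T22 8.86% and H2-Q1 8.05%, while H2-K1 shared 0.957% and H2-D1 3.59%. The 12 tested members with no shared stretch had a posterior SD of 0 in both libraries. Of the 12, 8 were lower past counting error, with a median log2 ratio of -0.53. Of the 11 that share sequence, 10 were lower, with a median of -1.0, where 15.8% of all tested genes were lower. Most that share sequence are class I heavy chains, so sharing and role cannot be told apart. The part of shared sequence in the ratios was not tested. Among tested members that share sequence, a larger shared part often went with a larger posterior SD, though not in every case. In replicate 1 the posterior SD was 0.0111% of the count for Tapbp, which shared 0.078% of its stretches. For H2-Q7, with 11.98% shared, it was 1.59%. H2-T22 and H2-Q1 shared similar parts, yet their posterior SD in replicate 1 was 1.31% and 9.58% of the count. H2-Ke6 was a further exception. It shared 61.6% of its stretches with Gm20427, a gene that overlaps it on the same strand, yet its posterior SD was 0.284% and 0.589% of the count. Gm20427 itself was given 0 and 62.99 counts, so the split of reads between the overlapping genes differed between the libraries.

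**Figure D4:**
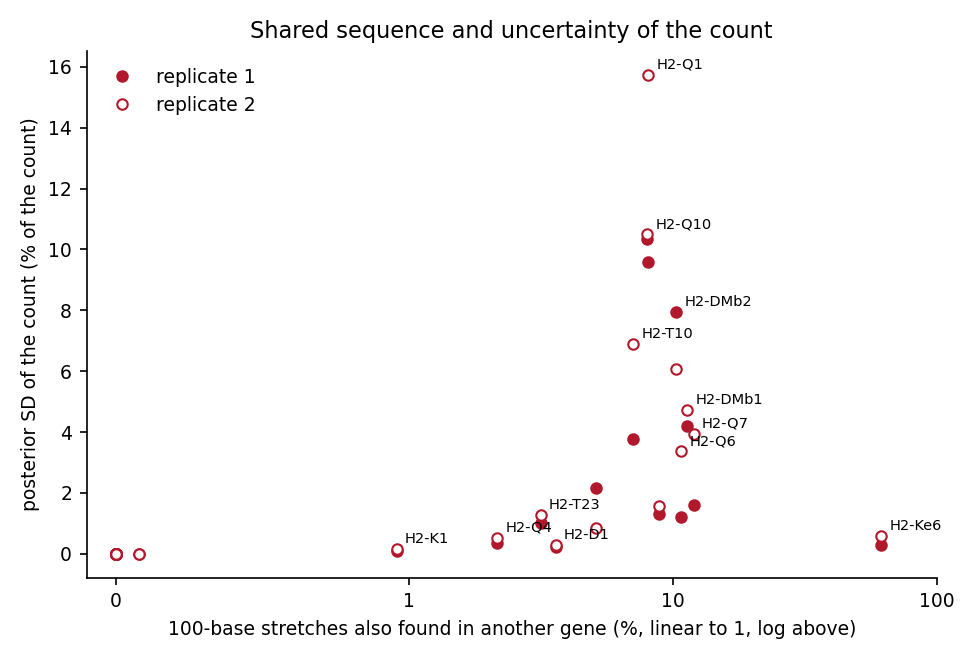
Posterior SD of the expected count, in percent of the count, against the percent of a member's 100-base stretches found in another gene (linear to 1, log above), for members with more than 3 counts in both libraries; filled circles are replicate 1 and open circles replicate 2. Members with no shared stretch lie at 0, H2-Q1 reaches 15.7%, and H2-Ke6 lies low at 61.6% shared.

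Genes overlapping a member on the other strand were present for 11 of the 23. The preparation was stranded, but whether strand was used in counting is not given in the sources used here. Most of these partners held few counts. The exceptions were Brd2, opposite H2-DMa, with 2399 and 2189 counts, and Psmb9, opposite Tap1, with 256 and 165.

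The transcript tables added a second view of each gene. Across the 23 tested members the gene-level log2 ratio was within 0.1 in both quantifications for 17. The widest gap was 1.403, for H2-Q1, and the next 0.373, for H2-Q7. By either quantification, 22 of 23 ratios were below 0. Of 21 tested members with more than 1 transcript, 17 had the same leading transcript in both tables, by mean share of the gene's TPM. The size of that share was less settled: for 14 of the 23 it moved between the tables by more than the SD over the libraries. The share of the first table's leading transcript went from 73.3% to 44.8% for H2-DMa, from 43.2% to 70.3% for H2-T22 and from 30.1% to 66.7% for Nlrc5.

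In the first transcript table the leading transcript of H2-K1, Tap2 and H2-Eb1 was not protein_coding. For H2-K1 it was H2-K1-215, a retained-intron transcript of 457 bases, with 42.0% of the gene's TPM in replicate 1 and 43.2% in replicate 2. By expected counts it held only 15.6% and 16.9%, since TPM divides by an effective length that is 99 bases under the transcript length and so weighs short transcripts up. The second table, with an effective length 309 and 323 bases under the transcript length, gave it 0 counts in both libraries. There H2-K1-205 and H2-K1-201, both protein_coding, led with 43.8% and 42.1% in replicate 1 and 39.7% and 25.8% in replicate 2. A similar case was Tapbp-208, a protein_coding transcript of 367 bases, which took 30.1% and 35.9% of Tapbp TPM in the first table; the second table gave it 0.

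For Tap2 and H2-Eb1 both tables put a non-coding transcript first. Tap2-202, a retained-intron transcript of 2561 bases, held 82.9% of Tap2 TPM in replicate 1 and 75.6% in replicate 2 by the first table, against 49.5% and 44.1% by the second. The protein_coding transcripts of Tap2 held 17.1% and 24.4% by the first table, against 50.5% and 55.9% by the second. H2-Eb1-205, annotated as a target of nonsense-mediated decay, held 69.8% and 56.7% of H2-Eb1 TPM by the first table, against 60.3% and 68.4% by the second. Protein_coding transcripts of H2-Eb1 held 3.51% and 16.2% by the first table, against 16.1% and 19.8% by the second. The gene levels of Tap2 and H2-Eb1 above are therefore sums in which annotated coding transcripts are the smaller part in the first table. By contrast B2m and H2-M3 have 1 transcript each, and Cd74 was divided between the coding transcripts Cd74-201 (70.7% and 60.1%) and Cd74-202 (29.3% and 39.9%).

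**Figure D5:**
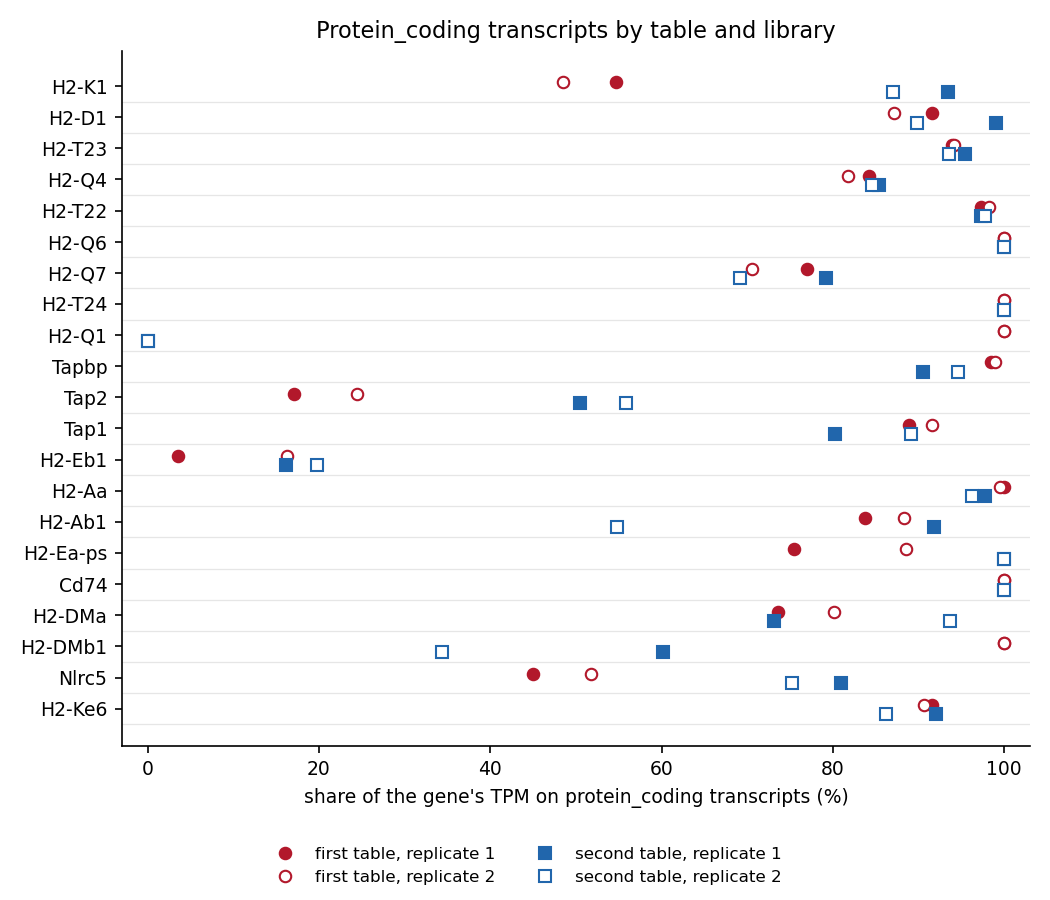
Share of each gene's TPM on protein_coding transcripts, in percent, for the 21 tested members with more than 1 transcript; circles are the first and squares the second transcript table, filled for replicate 1 and open for replicate 2, and equal values overlie. H2-Eb1 lies under 20% in every point, Tap2 moves from 17.1% and 24.4% to 50.5% and 55.9%, and H2-Q1 moves from 100 to 0.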

How the data were processed

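Per the labels, total RNA of 2 heart libraries was sequenced; per the deposited file list, quantification used mm10 with GENCODE M21. Tool names and versions are not given in the sources used here. The authors deposited a gene table and a first transcript table with expected counts, posterior SDs and TPM, and a second transcript table with estimated counts and TPM. No allele-specific values were used.

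Expected counts were rounded and scaled by TMM in edgeR 4.0.16 (R 4.3.3, prior count of 2). Spike-ins and 26249 entries that name no annotated gene, holding 1.94 and 1 counts, were left out of library sizes. Genes averaging 1 TPM or more were compared by a two-sided exact conditional binomial test, Benjamini-Hochberg adjusted over 12189 genes at 0.05. It compares 2 libraries, not conditions. It was tried on simulated data that held counting error only, which cannot show how it behaves under a wider spread. Intervals are 95% exact Clopper-Pearson. Alternatives were total, spike-in and DESeq2 1.42.0 scaling, other filters and prior counts, posterior mean counts and the second table. Protein sequences were not used here, so exons were compared.

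Members and lists were chosen with earlier results of these data known. Named genes were all members with a mean of at least 1 TPM, up to 5 below it, Ciita and Nlrc5, and listed pathway genes of at least 1 TPM; genes opposite a member, the Ifng count and the marker genes are named for context. One listed gene is not reported here.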

Additional observations from a re-analysis of the deposited data

Results flagged for a closer look

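Some H2- genes without a protein_coding transcript, which stand outside the members, still received reads. H2-T-ps was given 275.9 expected counts in replicate 1 and 117.33 in replicate 2, H2-K2 107.63 and 51.38, and H2-Q5 55.08 and 9.22. Each value is above the 3 counts that a count of 0 allows. All 3 were lower in replicate 2, and the second table gave 270, 164 and 78.5 counts in replicate 1 and 123, 55.9 and 21.4 in replicate 2. The source of these reads was not tested.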

How the results depend on the processing

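The count of members lower past counting error lay between 15 and 19 over all alternatives run, against 18, and none was higher in any. With no filter on TPM, 11 members were at least 2-fold apart, 8 lower and 3 higher, against 6. Those 3 had at most 4 counts in either library, with intervals that included 0. The other settings gave 4 to 8, all lower. At 5 TPM in place of 1, 12 members were detected in both libraries, against 21. Without replicate 1 or replicate 2 the number at 1 TPM was 21 and 24, and the summed level of H2-K1 and H2-D1 was 99.4 and 242 TPM. Scaling by total counts or spike-in counts gave log2 ratios of -1.23 and -1.06 for H2-K1 and H2-D1 summed, and -0.68 and -0.51 for class I loading. Spike-in scaling gave -1.16 for the other class I heavy chains. These shifts follow from the library sizes, which in replicate 2 over replicate 1 were -0.14 (log2) by TMM, -0.06 by total counts and -0.23 by spike-ins. H2-T24 went from 0.02 to -0.0523 with total counts. Of 114 log2 ratios of single members under alternatives, 110 kept their direction and their side of the adjusted p of 0.05; the 2-fold limit is crossed by members close to it, such as H2-D1, at -0.906 with spike-ins, and H2-T22, at -1.041 with total counts.

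No paired analysis was possible because the 2 libraries form 1 group. A ratio between the libraries needs both, so neither was left out there. Counting depth limits the editors, H2-M3, Tap1 and H2-T24, where a small difference was not detectable.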
